A study of Mus musculus with 95 samples.

Results

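The set comprised 9 mouse genes of the neural lineage, chosen by name: the proneural factors Neurog1, Neurog2, Neurog3 and Neurod1, the progenitor factors Olig2, Sox1 and Sox3, and the structural genes Nes and Tubb3. All 9 were among the 23377 genes of the count table, and 5 of them (Neurog1, Neurog3, Neurod1, Nes and Tubb3) passed the filter on low counts and were tested among 15464 genes. The other 4 (Neurog2, Olig2, Sox1 and Sox3) had too few reads, and their values are given as counts and from a fit with no filter.

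Neural genes are silent or weakly expressed in pluripotent embryonic stem cells and are activated when cells leave pluripotency, first through Sox1 and Sox3 and then through basic helix-loop-helix (bHLH) proneural factors. In stem cells many of their promoters lie in CpG-rich DNA and carry both H3K4me3, a mark of active or poised starts, and H3K27me3, a mark placed by Polycomb repressive complex 2 (PRC2), of which SUZ12 is a subunit. Polycomb repressive complex 1 (PRC1) contains RING1A or RING1B, which ubiquitinate histone H2A (the mark H2AK119ub1), together with 1 of 6 PCGF proteins: PCGF2 and PCGF4 (the product of Bmi1) form the canonical complexes that read H3K27me3, and PCGF1, PCGF3, PCGF5 and PCGF6 form variant complexes.

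The study compared E14 mouse embryonic stem cells, a male pluripotent line, with E14 derivatives edited by Cas9 and grown in serum with LIF, a MEK inhibitor and a GSK3β inhibitor. Polyadenylated RNA was sequenced in 14 libraries, 2 each of wild-type, Pcgf1-/-, Pcgf2/4-/-, Pcgf3/5-/-, Pcgf6-/-, Pcgf1/2/4-/- and Pcgf3/5/6-/- cells. Chromatin immunoprecipitation gave 80 peak lists from the same genotypes, from Ezh1/2-/- cells, from Ring1a-/-_Ring1bfl and Ring1a/b-/- cells of a CreERT2 line, and from cells with the knockdowns shMGA, shMGAdHLH, shE2F6, shE2F6-MGAdHLH, shUsf1, shUsf2 or shCtr. Each edited line came from isolated clones, further genes being edited in cells already edited once, and the file headers name 1 line code per genotype, so that a genotype and its clone cannot be told apart. The Pcgf6-/- line carries a different code in the count table than in the authors' deposited table of that comparison. With 2 libraries a group and nothing saying that they came from separate cultures, p-values measure the spread between these libraries only, and every comparison with wild-type shares the same wild-type pair.

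Library totals ran from 2147968 to 7848161 counts, lowest in the triple knockouts and in 1 Pcgf2/4-/- library. Between the wild-type libraries the chi-square per degree of freedom was 0.951 over 13931 genes, below that of sampling alone, and 1.05 over those of low and middle counts, so this pair was also counted as 1 library in an alternative, whereas the Pcgf2/4-/- pair differed most (21.3). All 7 pluripotency markers (such as Pou5f1 and Nanog) were detected in each group, summing to 1080 to 2300 CPM (counts in proportion to the TMM-scaled library total). Pcgf1 fell from 66.1 and 61 CPM in wild-type to 4.81 and 3.2 in Pcgf1-/- and to under 1 CPM in Pcgf1/2/4-/-, and Pcgf6 had no read in Pcgf6-/-. Pcgf6 RNA in the line labelled Pcgf3/5/6-/- was 42 and 37.2 CPM, against 36.2 and 34.3 in wild-type, and RNA of Pcgf2, Bmi1, Pcgf3 and Pcgf5 was likewise present where those genes are labelled as deleted. Pcgf5 was 13 and 10.8 CPM in wild-type, 5.48 and 4.6 in Pcgf3/5-/- and 16.4 and 13.5 in Pcgf3/5/6-/-. A small edit can leave the RNA in place, so these counts do not check the labels there, and each line is called here by its label.

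Levels between the genes were compared per kilobase of exon. In wild-type cells Tubb3, the neuronal class III beta-tubulin, was by far the highest, at 43.3 and 44.7 CPM per kb. Nes, which encodes the progenitor intermediate filament nestin, followed at 0.712 and 0.438, and Neurog3 at 0.371 and 0.366. Sox1 (0.247 and 0.209) and Neurod1 (0.157 and 0.258) overlapped each other. Neurog1 had 1 read in each wild-type library, Neurog2 had 1 read in all, and Olig2 and Sox3 had none, which allows up to 0.212 CPM over the pair. Thus 8 of the 9 genes were near silent and Tubb3 was not. How the authors' counting treated overlaps is not stated in the labels, and the SMART-seq2 chemistry does not mark strand, so counts are less certain where annotated genes overlap: Neurod1 shares sequence with Cerkl on its strand and Gm17325 on the other, Neurog3 with 2010107G23Rik on the other strand, Sox1 lies within Gm5607, Tubb3 lies within the readthrough gene Gm20388, and Tubb3 has close relatives among the beta-tubulins.

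In NCBIM37 with GENCODE M1 names, Neurog1 (ENSMUSG00000048904.4) is at chr13:56351866-56353524 (minus strand), Neurog2 (ENSMUSG00000027967.7) at chr3:127336054-127338549 (plus) and Neurog3 (ENSMUSG00000044312.3) at chr10:61595838-61597511 (plus). Neurod1 (ENSMUSG00000034701.8) is at chr2:79292678-79296908 (minus) and Olig2 (ENSMUSG00000039830.8) at chr16:91225795-91228922 (plus). Sox3 (ENSMUSG00000045179.7) is at chrX:58144545-58146605 (minus), Nes (ENSMUSG00000004891.10) at chr3:87775000-87784373 (plus) and Tubb3 (ENSMUSG00000062380.3) at chr8:125935324-125945915 (plus). Sox1 has no entry under that name there, and its start, chr8:12395519 (plus), was set by an exact match of its RefSeq promoter.

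Peaks were assigned to a gene when they came within 2.5 kb of an annotated start in NCBIM37 (mm9), and each wild-type antibody had 1 sample. In wild-type cells all 9 genes had H3K4me3 (68.5% of 21002 genes with a start did) and all 9 had SUZ12 (17.2% of genes). RING1B was called at 7 (15.8% of genes) and PCGF2 at the same 7 (13.5%), the exceptions being Neurod1 and Tubb3. H3K27me3 was called at 7 (13.4%), all but Sox1 and Sox3. PCGF6 was called at 4, namely Neurog1, Neurog2, Olig2 and Nes (5.83%), PCGF1 at 3, namely Neurog1, Neurog2 and Nes (2.59%), and PCGF3 at none (0.89%). H2AK119ub1 was called at 5 (3.96%), namely Neurog1, Neurog2, Neurog3, Olig2 and Nes, and H3K36me3, a mark of transcribed gene bodies, at none (27.8%). With peaks limited to a −log10 q of at least 20, a limit chosen after seeing the data, 8 of the 9 genes kept a SUZ12 call, 5 an H3K4me3 call, and none an H3K27me3, PCGF1 or PCGF6 call.

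Positions of the peaks differed between the genes. Fold enrichment is the authors' value for each peak and ranks peaks only within its own list. Olig2, which encodes the bHLH factor of oligodendrocyte and motor neuron progenitors, had the broadest domain, a single RING1B peak at chr16:91221473-91229426 that covered the gene and ranked 60 of 5454 by fold enrichment (28.6). The main RING1B peaks of Neurog2 (26.2, rank 139) and Neurog1 (25.7, rank 161) also stood high, in the top 2.55% and 2.95% of the list, and their summits lay 744 and 422 bases downstream of the start. The RING1B peak of Nes (17, rank 859) had its summit 387 bases downstream, close to the PCGF1 summit at 315 and the PCGF6 summit at 325. Sox1 and Sox3, which encode SOXB1 factors that hold cells in a neural progenitor state, each had RING1B, SUZ12 and PCGF2 in several separate peaks.

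**Figure D1:**
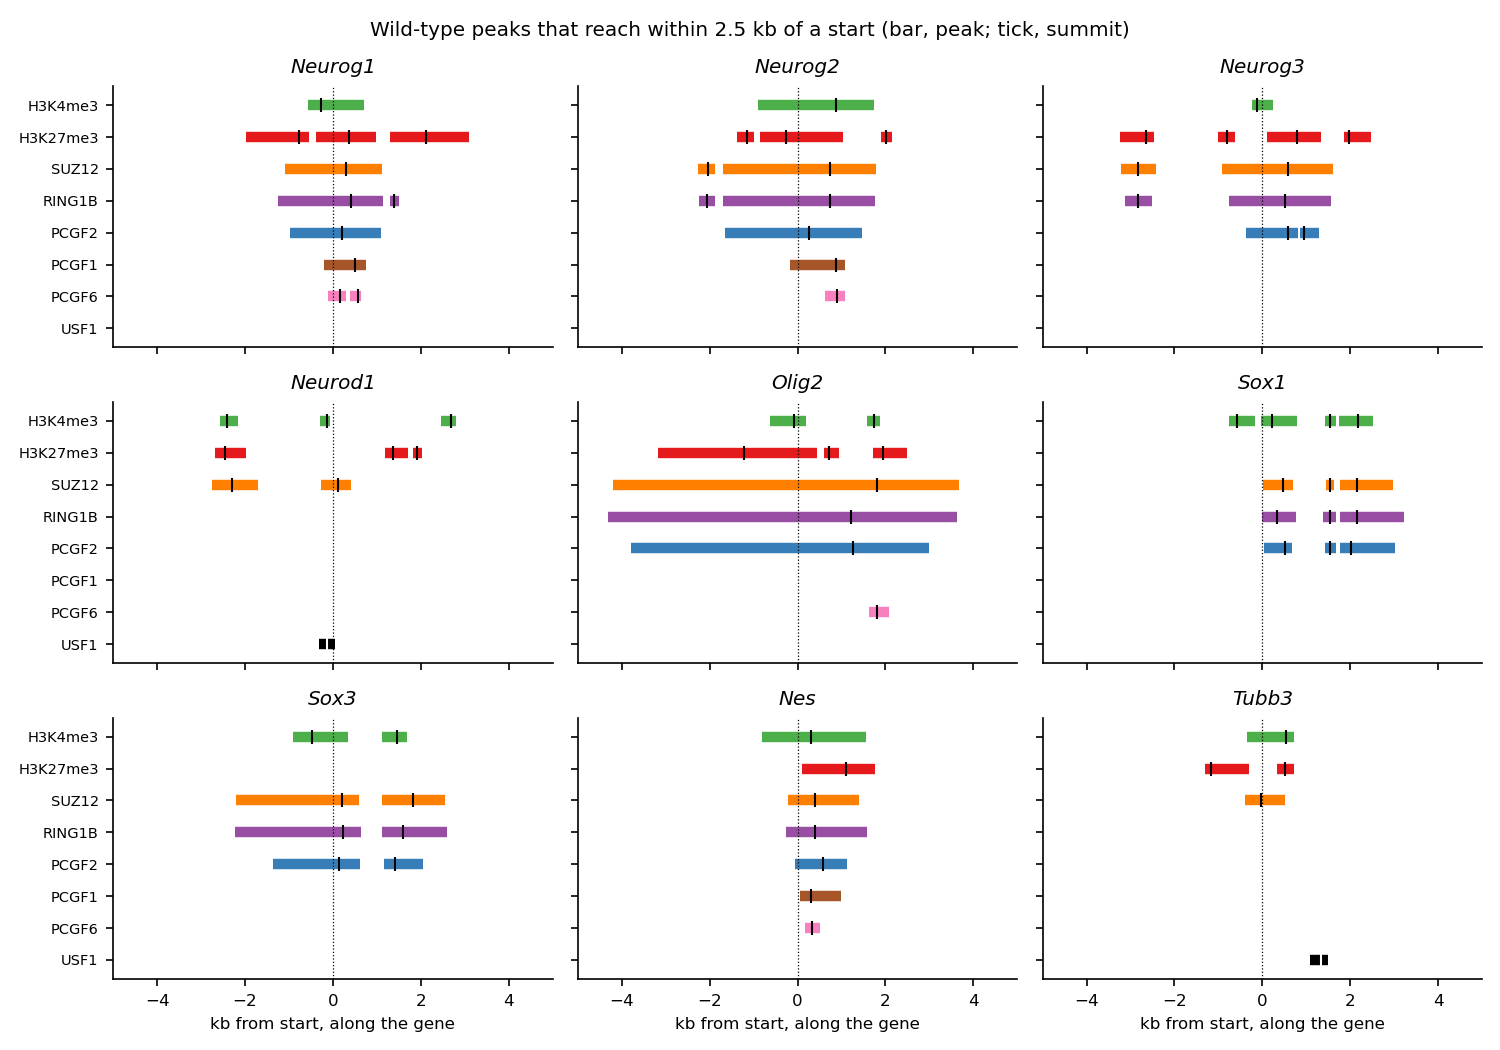
Wild-type peaks that come within 2.5 kb of a start of each of the 9 genes, with kb from the most upstream start along the gene on the x axis and 1 row per antibody; bars are peaks and ticks are summits. Neurog1, Neurog2 and Nes carry H3K4me3, H3K27me3, SUZ12, RING1B, PCGF2, PCGF1 and PCGF6 together, whereas Neurod1 and Tubb3 carry no RING1B or PCGF peak. Both carry a USF1 peak, as did 17% of all genes.

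The 250 bases before the start are shown for the 3 genes at which PCGF1, PCGF2, PCGF6 and RING1B were all called, because binding of PCGF1 complexes is known to follow CpG density through the partner KDM2B. They are read from NCBIM37 5′ to 3′ along the gene, with each CG in capitals. Neurog1 is chr13:56353525-56353774 (minus strand), Neurog2 is chr3:127335804-127336053 (plus) and Nes is chr3:87774750-87774999 (plus).
Neurog1: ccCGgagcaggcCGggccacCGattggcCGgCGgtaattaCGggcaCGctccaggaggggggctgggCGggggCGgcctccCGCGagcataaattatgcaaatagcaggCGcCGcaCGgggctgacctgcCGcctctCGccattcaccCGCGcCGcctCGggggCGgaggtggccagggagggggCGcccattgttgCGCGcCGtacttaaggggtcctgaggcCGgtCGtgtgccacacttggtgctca
Neurog2: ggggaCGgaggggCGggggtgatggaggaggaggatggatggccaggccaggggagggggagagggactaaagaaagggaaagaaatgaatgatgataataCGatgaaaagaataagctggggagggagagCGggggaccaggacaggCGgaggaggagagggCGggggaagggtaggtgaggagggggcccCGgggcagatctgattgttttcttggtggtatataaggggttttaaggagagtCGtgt
Nes: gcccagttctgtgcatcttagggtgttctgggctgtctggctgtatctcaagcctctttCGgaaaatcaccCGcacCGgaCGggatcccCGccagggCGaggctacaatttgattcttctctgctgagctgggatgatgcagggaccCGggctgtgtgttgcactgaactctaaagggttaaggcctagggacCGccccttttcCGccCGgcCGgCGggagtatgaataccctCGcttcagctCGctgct
Neurog1 has 27 CG in these bases, more than 90.2% of the 21002 genes, Nes has 14 (more than 63.6%) and Neurog2 has 8 (more than 46.2%), against a median of 9. Within 1 kb on either side of the start, where most summits lay, Neurog2 was the richest of the 3, with 165 CG against 137 for Neurog1 and 127 for Nes. At Neurog2 the summits of the main RING1B, SUZ12, PCGF1, PCGF2 and PCGF6 peaks all lay downstream of the start, between 252 and 900 bases. Tubb3 had 82 CG and Neurod1 had 62, the lowest numbers of the 9, with Sox3 the highest at 189. In the 250 bases, Sox1 (29), Olig2 (22), Neurog3 (18) and Sox3 (16) had more CG than Nes. None of these had a PCGF1 call in wild-type cells. A tie between CG number and PCGF1 calls was not tested.

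Neurod1 and Tubb3, the pair without a called RING1B or PCGF peak in wild-type cells, were the only members with USF1 (2 of 9, 17% of genes), a bHLH leucine zipper factor that binds the E-box CACGTG. This count is near the share of all genes and is given as a description. The 101 bases around each USF1 summit are shown from NCBIM37 along the gene, with the E-box in capitals. The Neurod1 window, chr2:79297000-79297100 (minus strand), is centred 142 bases before the most upstream start, and the Tubb3 window, chr8:125936601-125936701 (plus), is centred 1327 bases after the start in the first intron.
Neurod1 USF1 summit: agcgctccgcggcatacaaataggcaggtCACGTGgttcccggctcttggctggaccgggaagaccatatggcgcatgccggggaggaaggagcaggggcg
Tubb3 USF1 summit: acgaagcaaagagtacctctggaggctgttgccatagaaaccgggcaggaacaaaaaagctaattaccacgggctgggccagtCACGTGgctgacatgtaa
Both windows hold CACGTG, which reads the same on both strands, as did 68.4% of all 9659 USF1 windows of that length and 1.23% of windows 5 kb away. Of the 9 promoters of 250 bases, that of Neurod1 alone holds it (6.67% of all promoters do). The USF1 peak of Tubb3 ranked 1219 of 9659 by fold enrichment (22.4), and that of Neurod1 ranked 4506 (8.97).

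Nes changed in more lines than any other member. Its level was 4.57 and 2.81 CPM in wild-type, 14.3 and 12.3 in Pcgf1-/-, and 11 and 7.48 in Pcgf3/5-/-. It was 20.3 and 16.5 CPM in Pcgf6-/-, and 25.6 and 25.7 in Pcgf3/5/6-/-, the highest of all groups. It was lowest in Pcgf2/4-/-, at 0.838 and 0.511 CPM, from 2 and 4 reads, and 4.81 and 6.77 CPM in Pcgf1/2/4-/-. Only the Pcgf1/2/4-/- pair came near the wild-type pair, without overlapping it. By edgeR (quasi-likelihood, Benjamini-Hochberg adjustment over 15464 genes), Nes rose by 1.87 ± 0.27 on the log2 scale (SE) in Pcgf1-/- (adjusted p = 0.000141), by 2.32 ± 0.26 in Pcgf6-/- (4.8e-06) and by 2.79 ± 0.27 in Pcgf3/5/6-/- (1.35e-06), and these 3 calls held under all 11 alternatives. It also rose by 1.34 ± 0.28 in Pcgf3/5-/- (adjusted p = 0.00386), a call lost without wild-type replicate 2 (0.0659) or Pcgf3/5-/- replicate 1 (0.0747). It fell by 2.6 ± 0.52 in Pcgf2/4-/- (adjusted p = 0.00307), lost without Pcgf2/4-/- replicate 2 (0.0728) or with those 2 groups alone in the fit (0.0597). In bulk RNA, fewer cells expressing a gene and less RNA per cell cannot be told apart.

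Tubb3 fell where Nes rose in Pcgf1-/- and Pcgf6-/-, and both fell in Pcgf2/4-/- and rose in Pcgf3/5/6-/-. Its level was 80.9 and 83.5 CPM in wild-type, 8.38 and 14.7 in Pcgf2/4-/-, and 169 and 171 in Pcgf3/5/6-/-. In Pcgf1-/- it was 59.7 and 53.3 CPM, in Pcgf6-/- 68.2 and 59.8, in Pcgf3/5-/- 104 and 93.8, and in Pcgf1/2/4-/- 85.4 and 91.7. No knockout pair overlapped the wild-type pair, and the Pcgf2/4-/- and Pcgf3/5/6-/- pairs stood farthest from it. By edgeR, Tubb3 fell by 2.69 ± 0.17 on the log2 scale in Pcgf2/4-/- (adjusted p = 6.34e-07) and rose by 1.05 ± 0.13 in Pcgf3/5/6-/- (1.86e-05), under all 11 alternatives in both. In the authors' deposited table the Pcgf2/4-/- value was −2.65 (adjusted p = 3.87e-43). The smaller drop in Pcgf1-/- (−0.53 ± 0.14, adjusted p = 0.00853) was lost without wild-type replicate 2 (0.0617) or Pcgf1-/- replicate 2 (0.136), and that in Pcgf6-/- (−0.36 ± 0.13, 0.0407) held in only 2 of 11 alternatives. The log2 changes of 0.27 ± 0.13 in Pcgf3/5-/- and 0.11 ± 0.14 in Pcgf1/2/4-/- did not pass the threshold.

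Neurog1, a proneural factor of sensory and cortical neurons, was detected above a few reads in 1 genotype. Pcgf3/5/6-/- had 17 and 15 reads (5.37 and 5.07 CPM), wild-type had 1 and 1, Pcgf6-/- had 1 and 2, Pcgf2/4-/- had 0 and 1, and the other 3 knockouts had none. The Pcgf3/5/6-/- pair was thus far above every other library. Its level there was 36.8-fold the wild-type level, with a 95% counting interval of 9.4 to 317 set by the 2 wild-type reads. By edgeR the fitted log2 change was 4.99 ± 0.54 (adjusted p = 1.67e-05), called under all 11 alternatives and lowest with loess offsets (3.03). Neurog1 passed the filter on low counts through Pcgf3/5/6-/- alone, and every alternative but the unfiltered one kept that filter. Its p-values in comparisons with Pcgf3/5/6-/- are therefore a description. Neurog2, its close relative with the same wild-type peaks, had no read in any knockout and 1 in wild-type. A fall was not detectable at this depth, and the absence of reads in Pcgf3/5/6-/- allows up to 0.49 CPM, below the Neurog1 level there.

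Neurod1, which acts downstream of the neurogenins in neuronal differentiation, was highest in the lines labelled as lacking Pcgf6. It had 3 and 5 reads in wild-type (0.428 and 0.703 CPM), 34 and 36 in Pcgf6-/- (4.23 and 5.52 CPM), and 13 and 8 in Pcgf3/5/6-/- (4.11 and 2.7 CPM). Pcgf1-/- had 5 and 1 reads, Pcgf1/2/4-/- had 0 and 3, and Pcgf2/4-/- and Pcgf3/5-/- had none. The Pcgf6-/- and Pcgf3/5/6-/- pairs lay above all other libraries. Neurod1 passed the filter on low counts through these groups alone, and every alternative but the unfiltered one kept that filter. Its p-values in comparisons with either group are therefore a description. By edgeR, Neurod1 rose by 3.04 ± 0.48 on the log2 scale in Pcgf6-/- (adjusted p = 0.000201; called under all 11 alternatives, at 1.44 with loess offsets). It rose by 2.55 ± 0.6 in Pcgf3/5/6-/- (adjusted p = 0.00346), but this value was 0.94 with loess offsets (0.217) and the call was lost without Pcgf3/5/6-/- replicate 1 (0.0521). Against its wild-type level, Neurod1 was at least 2.4-fold lower in Pcgf3/5-/- (adjusted p = 0.0523) and at least 1.93-fold lower in Pcgf2/4-/- (0.0722), with the limit of 3 counts over the pair. Neither passed the threshold, though the Pcgf3/5-/- value did under 4 alternatives, among them DESeq2 (0.0474), and in the authors' deposited table (0.0486). Such "at least" values, here and below, take the level of the group with reads as observed and leave out its counting error.

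Neurog3, the proneural factor of endocrine pancreas that also acts in the hypothalamus, showed a different order. It had 4 and 4 reads in wild-type (0.571 and 0.563 CPM), 25 and 7 in Pcgf1-/- (2.73 and 1.6 CPM) and none in Pcgf6-/-. Pcgf2/4-/- had 1 and 3 reads, Pcgf3/5-/- had 6 and 3, Pcgf1/2/4-/- had 5 and 0, and Pcgf3/5/6-/- had 1 and 3. The Pcgf1-/- pair lay above wild-type and the Pcgf6-/- pair below it. Neurog3 passed the filter on low counts through libraries of Pcgf1-/- and Pcgf1/2/4-/-, where it was highest. Its p-values for Pcgf1-/- are therefore a description. By edgeR, Neurog3 rose by 2 ± 0.6 on the log2 scale in Pcgf1-/- (adjusted p = 0.0219), lost with DESeq2 (0.0831), without either wild-type library (0.0995 and 0.104) and without Pcgf1-/- replicate 1 (0.273). In Pcgf6-/- it was at least 2.76-fold lower than in wild-type (adjusted p = 0.0294), a call lost whichever library was left out (0.073 to 0.124).

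The progenitor factors were read only as counts. Sox1, the earliest of them in neural commitment, had 7 and 6 reads in wild-type, 7 and 3 in Pcgf1-/-, 6 and 5 in Pcgf3/5-/-, 0 and 5 in Pcgf2/4-/-, and 0 and 1 in Pcgf1/2/4-/-. It had none in Pcgf6-/- and none in Pcgf3/5/6-/-. That is at least 4.48-fold and at least 1.88-fold below wild-type, and with no filter on low counts edgeR gave adjusted p = 0.00425 and 0.0323 over 20253 genes. Sox3 had no read in wild-type, 2 and 4 in Pcgf6-/- and 2 and 2 in Pcgf3/5/6-/-, at least 2.03-fold and at least 3.08-fold higher (0.0779 and 0.0496). In the authors' deposited table Sox1 passed in Pcgf6-/- (adjusted p = 0.0177) but not in Pcgf3/5/6-/- (0.0771), and Sox3 in neither (0.386 and 0.271). The opposite changes of these SOXB1 genes in Pcgf3/5/6-/- thus rest on 1 unfiltered fit and, for Sox3, on 4 reads. In these unfiltered fits 38.1% of genes passed in Pcgf6-/- and 43.5% in Pcgf3/5/6-/-. Olig2 had 2 reads in 1 Pcgf1/2/4-/- library and none in the other 13.

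**Figure D2:**
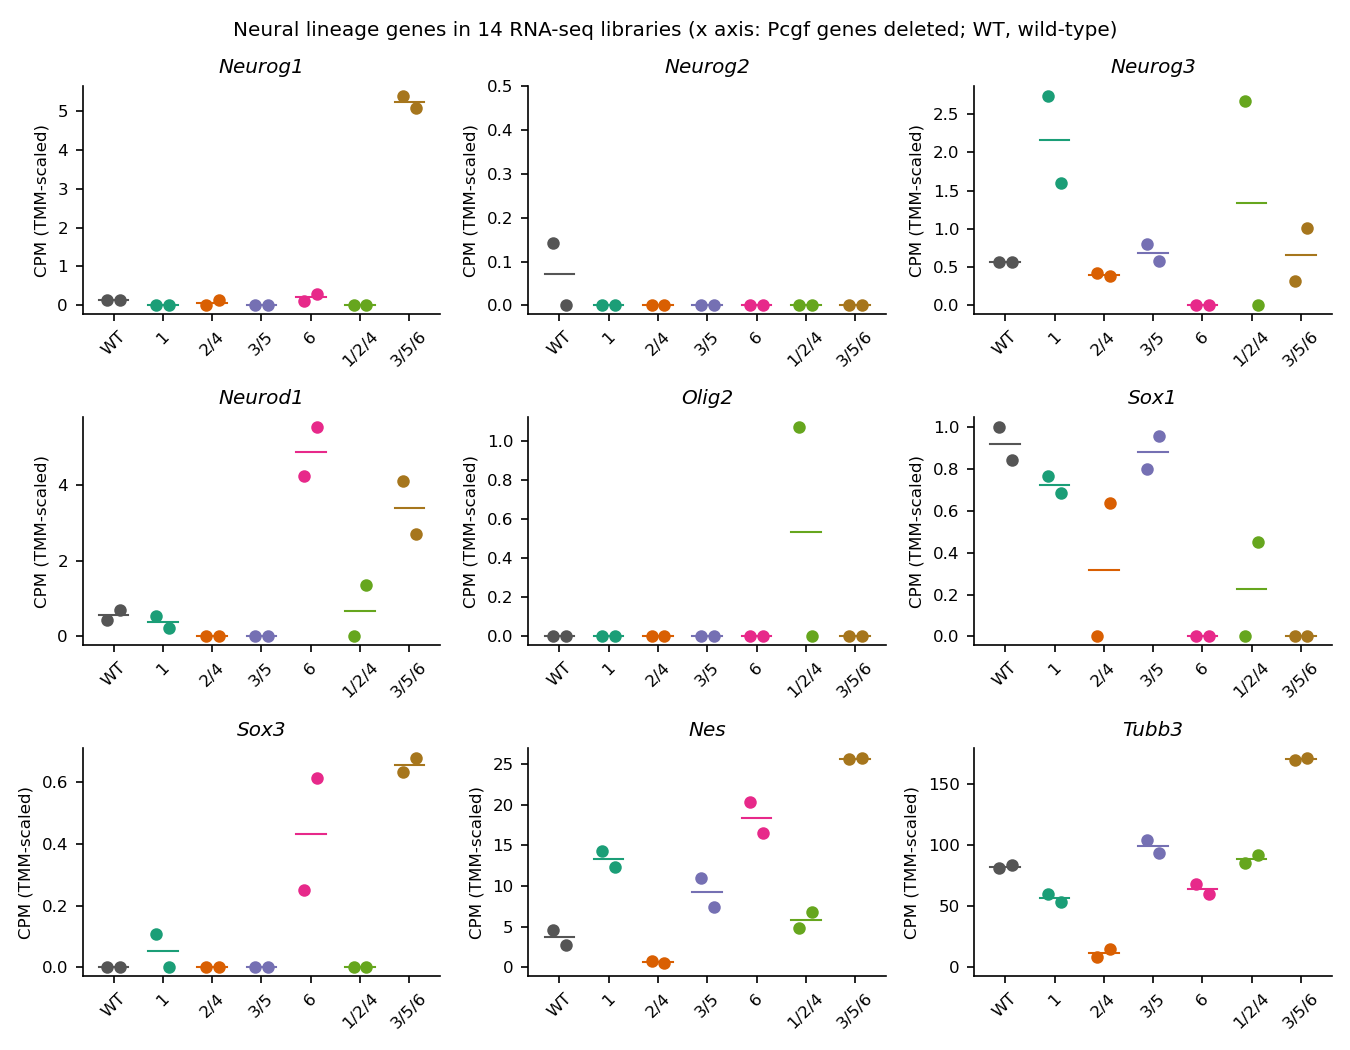
CPM of the 9 genes (y axis, TMM-scaled, each panel on its own scale) in each of the 14 RNA-seq libraries; points are libraries and bars are means of 2, by the Pcgf genes deleted (x axis). Neurog1 reads were nearly all in Pcgf3/5/6-/- (5.37 and 5.07 CPM), Neurod1 was highest in Pcgf6-/-, and Nes and Tubb3 were both lowest in Pcgf2/4-/- and highest in Pcgf3/5/6-/-.

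Counted over the 5 tested members, 3 changed in Pcgf1-/- (32.3% of all tested genes did), 2 in Pcgf2/4-/- (21.6%) and 1 in Pcgf3/5-/- (21.6%). In Pcgf6-/- 4 changed (46.5%), in Pcgf3/5/6-/- 4 (53.3%) and in Pcgf1/2/4-/- none (37%; none at an unadjusted p under 0.05 by edgeR and none by DESeq2). A member passed the filter through the groups where it was high, so these counts are a description.

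**Figure D3:**
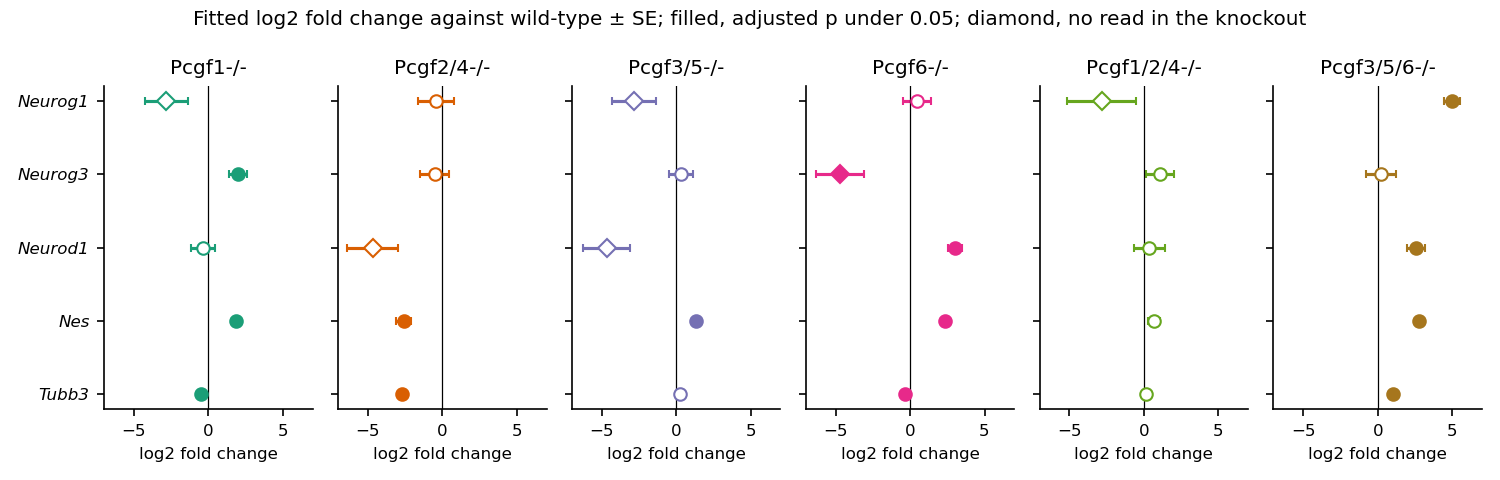
Fitted log2 fold change against wild-type with its SE (x axis) of the 5 tested genes in each of the 6 knockouts; filled symbols have an adjusted p under 0.05 and diamonds mark a knockout pair with no read, where the fitted value is no bound. Nes is above 0 and called in Pcgf1-/-, Pcgf3/5-/-, Pcgf6-/- and Pcgf3/5/6-/-, and no gene is called in Pcgf1/2/4-/-.

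Each triple knockout was also set against the lines that lack some of the same genes. Adding the loss of Pcgf1 to that of Pcgf2/4 went with higher Tubb3 (2.8 ± 0.18 on the log2 scale, edgeR adjusted p = 3.38e-07) and higher Nes (3.26 ± 0.58, 0.00083), so that both stood near wild-type in Pcgf1/2/4-/- (2 of 5 tested members changed, 30% of genes). Of all genes called there 38.6% were raised, and 49.5% with loess offsets. Against Pcgf1-/-, Pcgf1/2/4-/- had more Tubb3 (0.64 ± 0.15, edgeR adjusted p = 0.00364) and less Nes (−1.2 ± 0.33, 0.0105), again 2 members (41.6% of genes). The Nes call was lost without Pcgf1-/- replicate 1 (0.0663) or Pcgf1/2/4-/- replicate 1 (0.0871), and the Tubb3 call without Pcgf1/2/4-/- replicate 2 (0.0682).

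Adding the loss of Pcgf6 to that of Pcgf3/5 went with 4 raised members (51.8% of genes changed and 27.1% rose). Neurog1 and Neurod1, with no read in Pcgf3/5-/-, were at least 22.1-fold and at least 14.4-fold higher (edgeR adjusted p = 9.56e-06 and 0.000208). Both genes passed the filter on low counts through groups where they were high, so these p-values are a description. Nes rose by 1.45 ± 0.24 on the log2 scale (0.000162) and Tubb3 by 0.78 ± 0.13 (0.000233). Against Pcgf6-/-, 3 members were higher in Pcgf3/5/6-/- (46% of genes changed and 19% rose). Neurog1 was 25.4-fold higher (counting interval 7.93 to 129, edgeR adjusted p = 3.68e-05), Tubb3 rose by 1.41 ± 0.14 (3.98e-06), and Neurog3, with 4 reads against none, was at least 3.23-fold higher (0.0416, lost without any 1 of the 4 libraries). The differences of 0.47 ± 0.22 for Nes (0.093) and −0.49 ± 0.4 for Neurod1 (0.343) did not pass the threshold. A test of whether each triple knockout differed from the sum of its partial knockouts was passed by Tubb3 in the Pcgf1/2/4-/- family (1 of 5; 30.9% of genes) and by Neurog1 and Tubb3 in the Pcgf3/5/6-/- family (2 of 5; 34.9% of genes).

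Across the knockout lines, RING1B was called at 7 of the 9 genes in Pcgf1-/- (15.9% of genes), 8 in Pcgf2/4-/- (17.8%), 6 in Pcgf3/5-/- (16.1%), 8 in Pcgf6-/- (13.3%) and 8 in Pcgf3/5/6-/- (8.39%). The added gene in the last, in Pcgf2/4-/- and in Pcgf6-/- was Neurod1, and Neurog3 was the gene called in wild-type but not in Pcgf3/5-/-. Tubb3 had no RING1B peak in any line. In Pcgf1/2/4-/- the 2 samples gave 5 and 4 genes (7.06% and 6.28%): Neurog1, Neurog2, Olig2 and Nes in both and Sox3 in 1. Neurog3 and Sox1 had a RING1B peak in wild-type and in neither Pcgf1/2/4-/- sample, and their RNA there was 5 and 0 reads for Neurog3 and 0 and 1 for Sox1. Neurog1, Nes and Neurod1 had a RING1B peak in Pcgf3/5/6-/-, where their RNA was higher than in wild-type.

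SUZ12 was called at all 9 genes in Pcgf2/4-/- (21.9% of genes), Pcgf3/5-/- (17.7%) and Pcgf3/5/6-/- (13.6%), at 8 in Pcgf1-/- (15.9%) and Pcgf6-/- (15.2%), and at 7 in Pcgf1/2/4-/- (13.8%). Tubb3 was the gene without a call in the last 3 of these, and Sox1 the other in Pcgf1/2/4-/-. H3K27me3 in Pcgf1/2/4-/- was called at Neurog1, Neurog2 and Olig2 alone (3 of 9, 5.82% of genes). It was called at 8 in Pcgf1-/- (20.2%), at 6 in Pcgf6-/- (14.2%), and at all 9 in Pcgf2/4-/- (36.8%), Pcgf3/5-/- (21.6%) and Pcgf3/5/6-/- (20.3%). H3K4me3 was called at all 9 genes in each of the 4 other lines with a list (67.1% to 70.2% of genes), and H3K36me3 at none (30.2% to 33.5%). H2AK119ub1 lists differed most in length, from 1070 peaks in 1 Pcgf1/2/4-/- sample to 128786 in Pcgf3/5-/-. All 9 genes were called in Pcgf2/4-/- (42.1%), Pcgf3/5-/- (66.9%) and Pcgf3/5/6-/- (32.2%), 7 in Pcgf1-/- (10.3%), 6 in Pcgf6-/- (7.25%), and 4 and 1 in Pcgf1/2/4-/- (1.73% and 0.857%). Neurog1 was the gene called in both of the last. With 1 sample for nearly every list and lists of such unequal length, a peak that is not called in a line is not shown to be lost.

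The PCGF lists differed by gene as well. PCGF1 had no member in Pcgf1-/- (0.00952% of genes), 5 in Pcgf2/4-/- (5.84%), 3 in Pcgf3/5-/- (0.824%) and 6 in Pcgf6-/- (10.2%), where Neurog3, Olig2 and Sox1 joined Neurog1, Neurog2 and Nes. PCGF2 was called at the wild-type 7 in Pcgf1-/- (13.1%), at 6 in Pcgf3/5-/- (10.2%) and at 8 in Pcgf6-/- (20.4%), including Neurod1, and at Neurog2 alone in Pcgf2/4-/- (3.59%). PCGF6 was called at 5 in Pcgf1-/- (18.2%), at 7 in Pcgf2/4-/- (33.5%), Neurod1 among them, and at 4 in Pcgf3/5-/- (5.4%). In Pcgf6-/- it was called at Neurog2 (1.62%), so Neurog2 kept a call where the antibody's target is deleted in both the PCGF2 and the PCGF6 lists. PCGF3 was called at Neurog1 and Neurog2 in Pcgf6-/- (2.31%) and at no member in Pcgf1-/- (0.319%), Pcgf2/4-/- (0.419%), Pcgf3/5-/- (0.0476%), Ring1a-/-_Ring1bfl (0.39%), Ring1a/b-/- (0.19%), shCtr (0.2%), shUsf1 (0.0238%) or shUsf2 (0.00952%). In Ezh1/2-/- cells, which lack the PRC2 methyltransferases, PCGF1 was called at 6 members (11.6%) and PCGF2 at none (0.824%). In Ring1a/b-/- cells PCGF1 was called at Neurog1, Neurog2, Olig2 and Nes (4.35%), PCGF6 at Neurog1 (4.83%) and PCGF2 at none (1.63%), against 8 (32.7%; the one PCGF1 list with Tubb3), 4 (6.26%) and 7 (10%) in Ring1a-/-_Ring1bfl cells. PCGF6 was called at 6 members in shCtr cells (21%), Neurod1 among them, in a list of 7451 peaks against 1868 in wild-type. It was called at none in shMGA (0.729%), Neurog1, Neurog2 and Nes in shMGAdHLH (2.26%), Neurog2 and Nes in shE2F6 (1.88%) and Sox1 in shE2F6-MGAdHLH (0.828%). WDR5 was called at Neurog1 and Neurog2 in wild-type cells (9.49%).

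**Figure D4:**
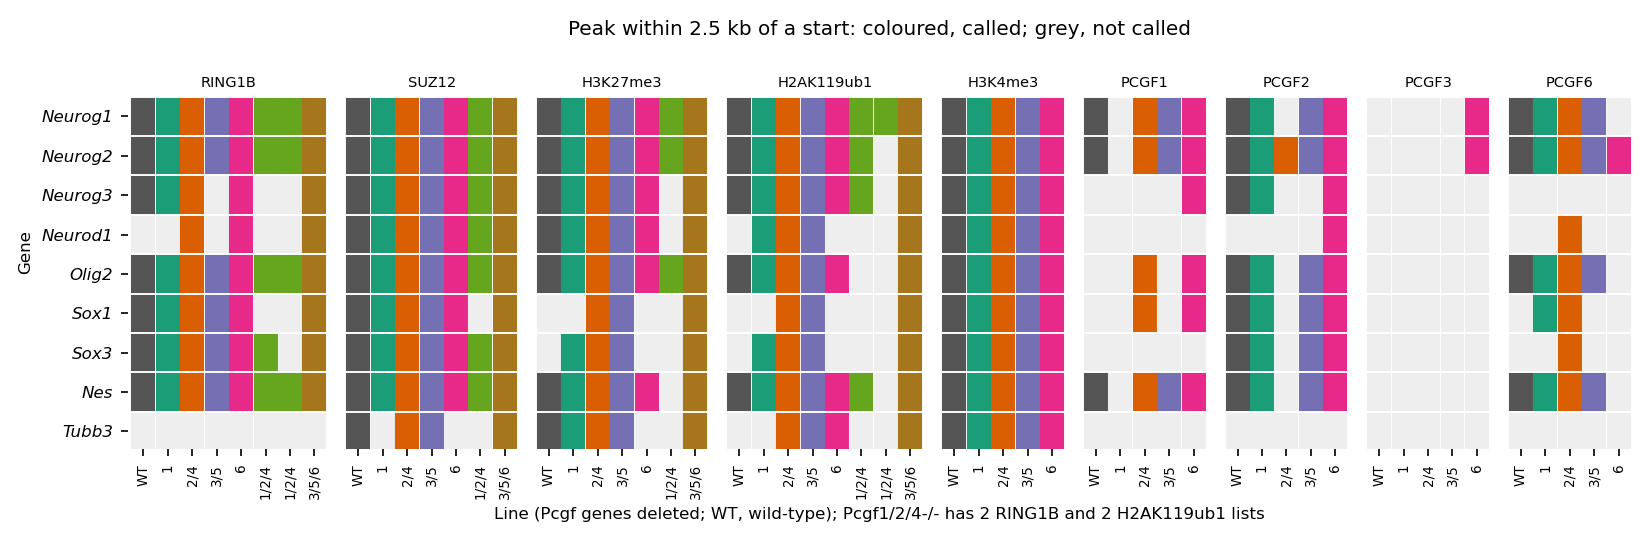
Whether a peak was called within 2.5 kb of a start of each of the 9 genes (rows) in each peak list (columns, grouped by antibody and ordered by the Pcgf genes deleted); coloured squares are calls and grey squares are none. Neurog1 and Neurog2 have RING1B, SUZ12 and H3K27me3 in every line, Tubb3 has no RING1B, PCGF1, PCGF2, PCGF3 or PCGF6 in any of these lines, and Neurod1 has RING1B in Pcgf2/4-/-, Pcgf6-/- and Pcgf3/5/6-/-.

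Other neural genes were followed in 5 lists. Of 14 other proneural and neural bHLH genes only 3 were tested, and they went apart. Olig1, a neighbour and relative of Olig2, had no read in wild-type and 5.37 and 3.38 CPM in Pcgf3/5/6-/-, at least 20.6-fold higher (edgeR adjusted p = 7.26e-05). It also had 19 reads in Pcgf6-/-, at least 6.12-fold higher than in wild-type. Olig1 passed the filter on low counts through Pcgf3/5/6-/- alone, so its p-value is a description. Olig3 had 1.85 and 2.25 CPM in wild-type and no read in Pcgf6-/-, at least 9.97-fold lower (0.000136), and Atoh1 had 1.43 and 1.41 CPM in wild-type and none in Pcgf2/4-/-, at least 4.84-fold lower (0.00511). In Pcgf3/5/6-/- 2 of the 3 rose and 1 fell (28% and 25.3% of all tested genes did), and in Pcgf3/5-/- none rose and 2 fell (11.1% and 10.4%). Genes this low passed the filter through the groups where they were high, so these counts are a description.

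Of 28 neural progenitor transcription factors 16 were tested. In Pcgf3/5/6-/- 7 rose and 5 fell (28% and 25.3% of all tested genes), with a median log2 change of 0.73 against 0.05 for all genes. In Pcgf6-/- 6 rose and 5 fell (27.8% and 18.6%), and in Pcgf1/2/4-/- 6 rose and 1 fell (14.4% and 22.6%; median 1.26 against −0.11, or 0.97 with groups of no read at their bound). Of all genes called in Pcgf1/2/4-/-, 38.9% were raised, but 51.1% with DESeq2 and 49.8% with loess offsets. In Pcgf1-/- 4 rose and 2 fell (13.9% and 18.4%), in Pcgf2/4-/- 5 rose and 1 fell (8.1% and 13.5%), and in Pcgf3/5-/- 1 rose and 3 fell (11.1% and 10.4%). Otx2, a forebrain and epiblast factor, rose from 4.28 and 5.2 CPM in wild-type to 31.6 and 23.7 in Pcgf3/5/6-/- (edgeR adjusted p = 1.92e-05). Gbx2, a hindbrain factor that also maintains naive pluripotency, fell from 63.6 and 62.2 to 6.72 and 6.89 CPM in Pcgf6-/- (6.45e-10).

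All 10 neural progenitor structural and signalling genes were tested. In Pcgf3/5/6-/- 5 rose and 3 fell (28% and 25.3% of all tested genes did), in Pcgf6-/- 3 rose and 3 fell (27.8% and 18.6%), and in Pcgf2/4-/- none rose and 4 fell (8.1% and 13.5%). In Pcgf1-/- 2 rose and 3 fell (13.9% and 18.4%), in Pcgf3/5-/- 2 rose and 1 fell (11.1% and 10.4%), and in Pcgf1/2/4-/- none rose and 2 fell (14.4% and 22.6%), so that several of these counts were near the share of all genes. Dll1, a Notch ligand of newborn neurons, had 1 read in wild-type and 9.48 and 6.76 CPM in Pcgf3/5/6-/-, a ratio of 115 with a wide counting interval (19.7 to 4640; edgeR adjusted p = 1.79e-05). It was also higher in Pcgf1-/-, with 47 reads against 50 in Pcgf3/5/6-/- (ratio to wild-type 49.1, counting interval 8.38 to 1980). Pcgf6-/- had 7 reads. Dll1 passed the filter on low counts through lines where it was high, so its p-value is a description. Vim, the intermediate filament partner of Nes, fell from 210 and 223 to 75.8 and 76 CPM in Pcgf3/5/6-/- (edgeR adjusted p = 1.85e-06), where Nes rose. Ncam1, a neural adhesion molecule, rose from 47.5 and 50.1 to 106 and 99.5 CPM in Pcgf3/5-/- (4.66e-06).

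Of 22 neuronal differentiation genes 19 were tested. None rose and 9 fell in Pcgf2/4-/- (8.1% and 13.5% of all tested genes did), with a median log2 change of −0.92 against 0 for all genes, in the line where Tubb3 was lowest. With those 2 groups alone in the fit only 2 of the list passed. In Pcgf1-/- none rose and 6 fell (13.9% and 18.4%; median −0.47 against −0.05), in Pcgf3/5-/- 4 rose and 2 fell (11.1% and 10.4%), and in Pcgf6-/- 5 rose and 6 fell (27.8% and 18.6%). In Pcgf1/2/4-/- 7 rose and 4 fell (14.4% and 22.6%), and in Pcgf3/5/6-/- 9 rose and 4 fell (28% and 25.3%; median 0.61 against 0.05). Nefh, the heavy neurofilament, rose from 8.28 and 9.28 to 49.4 and 49.8 CPM in Pcgf6-/- (edgeR adjusted p = 8.23e-08). The light neurofilament Nefl fell from 174 and 170 to 35.1 and 34.1 CPM in Pcgf3/5/6-/- (4.58e-08), as did the microtubule regulator Stmn3 from 95 and 101 to 13.6 and 12.5 (1.85e-08), while Tubb3 rose.

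All 9 inhibitors of neurogenesis were tested. In Pcgf3/5/6-/- 3 rose and 2 fell (28% and 25.3% of all tested genes did) and in Pcgf6-/- 2 rose and 3 fell (27.8% and 18.6%). None rose and 4 fell in Pcgf1-/- (13.9% and 18.4%), 1 rose and 4 fell in Pcgf1/2/4-/- (14.4% and 22.6%), none rose and 2 fell in Pcgf2/4-/- (8.1% and 13.5%), and none rose and 1 fell in Pcgf3/5-/- (11.1% and 10.4%). Several of these counts were near the share of all genes. Id2, which blocks bHLH factors by dimerising with their partners, rose from 23.1 and 23.5 to 164 and 170 CPM in Pcgf3/5/6-/- (edgeR adjusted p = 1.28e-09), and Id1 from 81.2 and 81 to 199 and 217 (1.18e-06). Hes1, the Notch target that represses proneural genes, fell from 31.5 and 37 to 7.58 and 7.1 CPM in that line (7.93e-06), in which Neurog1, Neurod1 and Dll1 rose. A link between these changes was not tested.

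**Figure D5:**
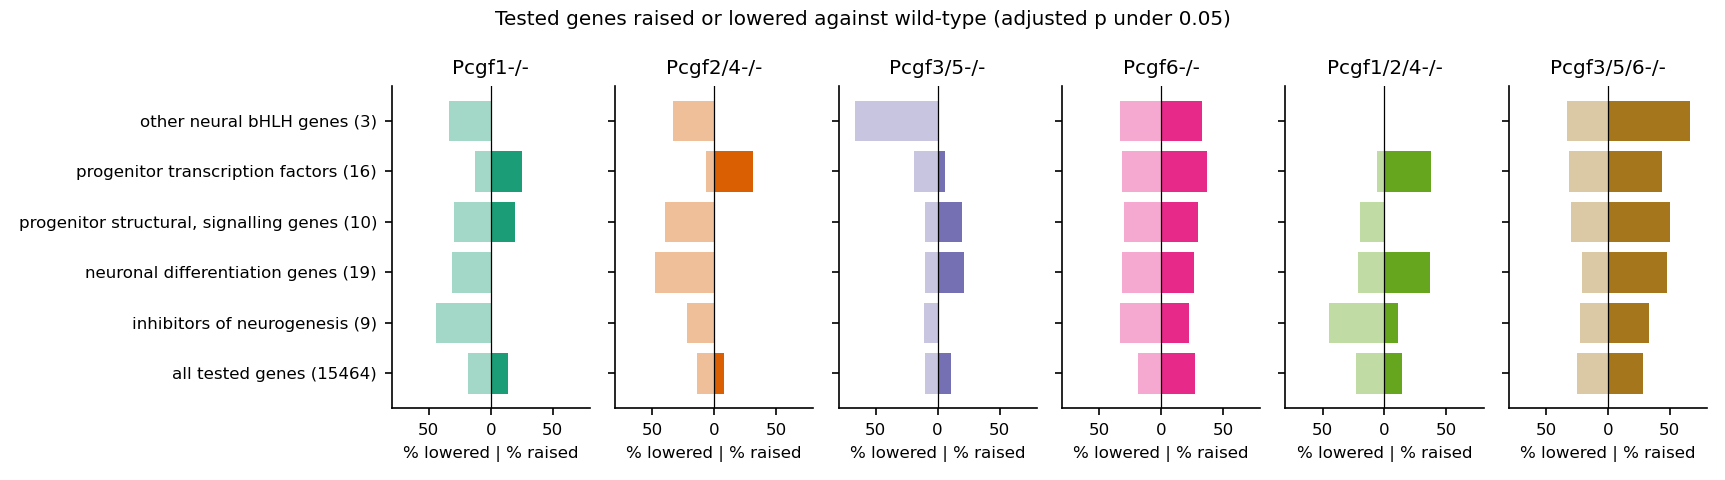
Percent of tested genes raised (right) and lowered (left, paler) against wild-type, on the x axis, for the 5 lists and all tested genes (y axis, number tested in brackets) in the 6 knockouts. Neuronal differentiation genes were lowered and none was raised in Pcgf2/4-/- and Pcgf1-/-, and raised and lowered genes both appear in each list tested in Pcgf3/5/6-/-.

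Markers of other lineages differed between the lines too, and not all in 1 direction. In Pcgf3/5/6-/- the 4 trophoblast markers summed to 223 to 229 CPM against 91.5 to 95.1 in wild-type. Of these, Tfap2c (19.1 and 17 CPM in wild-type, 167 and 157 in Pcgf3/5/6-/-) and Hand1 (1.14 and 0.281, then 32.5 and 38.9) rose, while Cdx2 fell from 71.1 and 77.8 to 18.6 and 20.3 CPM. The 6 fibroblast markers summed to 35.1 to 37.3 CPM there against 10.8 to 15 in wild-type, with Col3a1 at 0 in both, Dcn at no more than 0.338 CPM, and Lum at 4.42 and 3.38 CPM in wild-type and 0 in Pcgf3/5/6-/-. Of 6 primitive endoderm markers 5 were at 0 in wild-type and none in Pcgf6-/-, Pcgf1/2/4-/- or Pcgf3/5/6-/-. In Pcgf1/2/4-/- 2 of the 3 tested rose and 1 fell (14.4% and 22.6% of all tested genes did), as in Pcgf3/5/6-/- (28% and 25.3%). Dab2 was 42.5 and 38.5 CPM in Pcgf6-/- and 40.8 and 50.7 CPM in Pcgf3/5/6-/-. Lama1, the marker present in wild-type (72.6 and 66.1 CPM), was 63.6 and 65 CPM in Pcgf6-/- and fell to 26.9 and 32.1 in Pcgf3/5/6-/-. The 4 mesendoderm markers summed to 50.1 to 55.5 CPM in wild-type, 7.35 in both Pcgf6-/- libraries and 14.5 to 16.7 in Pcgf3/5/6-/-. In Pcgf2/4-/-, where Nes, Tubb3 and 9 neuronal genes fell, the mesendoderm markers summed to 18.4 to 23.9 CPM (3 of 3 tested fell). The fibroblast markers summed to 1.68 to 3.19 CPM there (3 of 4 tested fell and 1 rose). Of all tested genes 13.5% fell and 8.1% rose in that line. The 5 glial markers summed to 16.3 to 17.9 CPM in wild-type, 6.7 to 15 in Pcgf2/4-/- and 20.6 to 26.2 in Pcgf3/5/6-/-, with Aqp4 at 0 in all 3. The part of these shifts in the values of Neurog1, Neurod1, Nes and Tubb3 was not tested.

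Over the 14 libraries, the genes whose log2 CPM was most like each member's, among 11614 genes, are given as a description; the points share genotypes and depth. For Neurog1 they were Prss8 (Pearson r = 0.95) and Plbd1 (0.944), and for Neurod1 Sh3kbp1 (0.964) and B4galt4 (0.942). For Nes they were H2-K1 (0.957) and Fam126a (0.954), for Tubb3 Sept3 (0.964) and Kctd15 (0.963), and for Neurog3 Klhl42 (0.788) and Leng9 (0.783). Among the members themselves Nes and Tubb3 were most alike (0.778) and Neurog3 and Neurod1 least (−0.534).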

How the data were processed

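Polyadenylated RNA of 14 libraries (7 genotypes, 2 each) was read from the authors' deposited table of raw counts per gene symbol. Per the submitters' processing notes the tools were TopHat2 2.1.1, Bowtie 1.2.2, Picard 1.62, HTSeq 0.7.2, DESeq2 and MACS2 2.1.1 on mm9, with no role given for each. The 6 authors' deposited tables of comparisons hold log2 fold changes and adjusted p-values, and the 80 deposited peak lists hold each peak's fold enrichment and −log10 q-value. Histone-mark chromatin had Drosophila spike-in chromatin, per the labels' protocols, and whether peak calling used it is not given in the sources used here.

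Counts were fitted with edgeR 4.0.16 (R 4.3.3): TMM scaling, filterByExpr, all 14 libraries in 1 quasi-likelihood fit without a block, Benjamini-Hochberg adjustment over 15464 genes, threshold 0.05. Library totals (median 5793911) limit low genes. A group with no read was given a limit of 3 counts over its libraries, and ratios on 1 to 3 counts have exact 95% intervals. An "at least" fold sets the observed level of the other group against that limit. It leaves out the counting error of the group with reads, so it is not a confidence bound. Limits and intervals cover no spread beyond counting error. Replicate numbers did not pair libraries in the same direction (3 of 21 correlations above 0.1). Those above were among Pcgf1-/-, Pcgf3/5-/- and Pcgf6-/- (0.2 to 0.38), and Pcgf2/4-/- ran against these lines (−0.46 to −0.24). Replicate 1 had the higher library total in these lines, and replicate 2 in Pcgf2/4-/-. The part of depth or of a shared batch was not tested. Alternatives were RLE factors, DESeq2 1.42.0, no filter, only the groups compared, a replicate block, loess offsets and leaving out each library; summing the wild-type libraries and a −log10 q of at least 20 were added after seeing the data. The script was tested on simulated data.

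A peak belonged to a gene when it came within 2.5 kb of an annotated start (GENCODE M1), with an overlap of at least 1 base. Promoter and summit sequences were read from NCBIM37 with samtools 1.23.1; the Sox1 start comes from the RefSeq GRCm38.p6 promoter, matched exactly to NCBIM37. The members and lists were chosen with earlier results of these data known. Besides all members, the text names for each tested member the 2 genes with the highest Pearson correlation of log2 CPM (prior count 2; mean of at least 2), from each list the 3 genes with the smallest adjusted p in any comparison with wild-type, and the targeted genes (1 of these list genes is not reported here); individual lineage markers were named after their values were seen.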

Additional observations from a re-analysis of the deposited data

Results flagged for a closer look

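In 3 cases the level in a triple knockout line differed from the sum of its partial knockout lines, by the interaction term of the edgeR fit (triple knockout minus both partial knockouts plus wild-type, log2 scale, Benjamini-Hochberg over 15464 genes). Genotype and clone cannot be told apart in these terms. Tubb3 in the Pcgf1/2/4-/- family gave 3.34 ± 0.23 (SE; adjusted p = 4.65e-07; 30.9% of genes passed): its level was below wild-type in both libraries of Pcgf1-/- and of Pcgf2/4-/- and above it in both of Pcgf1/2/4-/-. Tubb3 in the Pcgf3/5/6-/- family gave 1.14 ± 0.19 (adjusted p = 0.000425; 34.9% of genes passed), with both Pcgf3/5/6-/- libraries above every Pcgf3/5-/- and Pcgf6-/- library. Neurog1 in that family gave 7.34 ± 1.8 (adjusted p = 0.00861), a fitted value that rests on a Pcgf3/5-/- pair with no read and is no bound. Neurog1 passed the filter through Pcgf3/5/6-/- alone, so this p-value is a description. For Nes the same terms were 1.4 ± 0.67 (adjusted p = 0.135) in the Pcgf1/2/4-/- family and −0.87 ± 0.36 (0.0734) in the Pcgf3/5/6-/- family.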

How the results depend on the processing

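Of 25 called member changes 15 were called under all 11 alternatives, among them 7 of the 14 against wild-type: Nes in Pcgf1-/-, Tubb3 in Pcgf2/4-/-, Neurod1 and Nes in Pcgf6-/-, and Neurog1, Nes and Tubb3 in Pcgf3/5/6-/-. Neurog1 and Neurod1 passed the filter on low counts through groups where they were high, and every alternative but the unfiltered one kept that filter. For these genes the tally is therefore a description. Leaving out 1 library gave 1 to 2 members changed in Pcgf1-/-, 1 to 2 in Pcgf2/4-/-, 0 to 1 in Pcgf3/5-/-, 2 in Pcgf6-/-, 3 to 4 in Pcgf3/5/6-/-, 1 to 2 in Pcgf1/2/4-/- against Pcgf1-/-, 2 to 3 against Pcgf2/4-/-, and 2 in Pcgf3/5/6-/- against Pcgf6-/-. The count for Pcgf2/4-/- was 1 with only the 2 groups fitted. For Pcgf3/5-/- it was 2 with DESeq2, no filter or loess offsets and 3 with only the 2 groups, and for Pcgf1/2/4-/- it was 1 with loess offsets (Nes, 0.99, edgeR adjusted p = 0.0413); the cause was not tested. Over all genes, fitting only the 2 groups called 793 genes in Pcgf2/4-/- against 3340. With a −log10 q of at least 20, members with a peak fell to 0 for PCGF1, PCGF6 and H3K27me3 and 5 for H3K4me3; of 40 peak counts under the alternatives 32 were equal to the reported ones and 4 were within 1.5 times of them, namely PCGF6 at 3 and H3K27me3 at 6 with a 1 kb window, H3K27me3 at 8 with 5 kb, and SUZ12 at 8 with that limit on q.

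With the replicate block the Tubb3 change in Pcgf6-/- was −0.36 (edgeR adjusted p = 0.0598) and no longer called; no other member call against wild-type was lost under the block. The numbers did not pair libraries in the same direction (correlations −0.46 to 0.38).

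No called change reversed; 13 values of 3 members did, all on few reads. Over the fits without 1 library the ranges were −1.22 to 0.06 for Neurod1 in Pcgf1-/- (0.04 in another), −0.16 to 1 for Neurog1 in Pcgf6-/-, and −0.8 to 0.81 for Neurog3 in Pcgf3/5/6-/-. In Pcgf1/2/4-/- they were −4.73 to 2.2 for Neurog3 and −4.72 to 1.24 for Neurod1 against wild-type, −6.8 to 0.13 and −4.45 to 1.58 against Pcgf1-/-, and −4.23 to 2.7 for Neurog3 against Pcgf2/4-/-. In Pcgf3/5/6-/- against Pcgf3/5-/- Neurog3 ran from −1.11 to 0.5 (0.18 in another). With loess offsets they were Neurog1 in Pcgf6-/- (−1.31) and Neurog3 in Pcgf3/5/6-/- (−1.45). Depth limits Neurog2, Olig2, Sox1 and Sox3, which had at most 13 reads in any pair.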
